A study of Mus musculus with 14 samples.

Results

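In heads of E12.5 mouse embryos of 3 Zcchc8 genotypes, 404 loci were followed that carry no gene name and lie more than 1000 and at most 10000 bases from the nearest named locus. A locus is a range of the genome that the deposited tables treat as 1 unit. The 404 were taken as every locus without a name that overlapped no named locus, had a gap of that size, and reached 0.5 FPKM (fragments scaled to transcript length and library size) in at least 3 of 14 libraries. They are 404 of 3977 unnamed loci at that distance, of 14314 unnamed loci at any distance and of 67811 loci in all. The other 3573 at that distance did not reach the level. The rule used the FPKM values of all genotypes, so any measure of how these loci differ between genotypes is in part set by the choice.

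Whole heads were taken from embryos of the C57BL/6J strain at E12.5. The groups were 6 Zcchc8-/- libraries (KO), 3 Zcchc8+/- libraries (HET) and 5 Zcchc8+/+ libraries (WT), all made with a TruSeq stranded mRNA kit, which selects polyadenylated RNA. The labels give no name for the mutant allele and do not say which embryo each library came from. If libraries share embryos, the p-values here reflect technical spread. In whole heads, fewer cells of a type and less RNA per cell cannot be told apart.

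The nuclear exosome targeting (NEXT) complex is built on ZCCHC8, and in it the RNA-binding protein RBM7 and the helicase MTR4 hand nuclear RNAs to the RNA exosome for decay. The known substrates of NEXT include short-lived RNAs made upstream of promoters and at enhancers, introns and the extended 3′ ends of small nuclear RNAs and other genes. Such RNAs are usually scarce because they are destroyed soon after they are made, and those made near promoters often end at early polyadenylation signals that lie where few splice donor sites precede them.

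Zcchc8 itself (chr5:123698294-123721100, mm10) averaged 15.5 ± 3.91 FPKM in KO (SD, n = 6), 25.7 ± 1.64 in HET (SD, n = 3) and 39.7 ± 2.32 in WT (SD, n = 5). The 6 KO libraries ran between 9.27 and 20.6 FPKM, below every HET and WT library, and the log2 difference between KO and WT was -1.39 (SE 0.15, limma-trend adjusted p = 2.1e-06). Relative depth, read from the lowest FPKM steps, ranged from 1.15 to 1.49 in KO, from 1.23 to 1.32 in HET and from 1.0 to 1.2 in WT, with WT1 as the unit.

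The 404 loci lay on 20 chromosomes, with 32 each on chromosomes 4 and 11, with a median length of 1248.5 bases, and their gaps had a median of 3790 bases. They occupied 391 distinct ranges, because 26 of them shared a range with another of the 404. In all, 62 had exactly the range of some other locus. Fragments of loci with 1 range, which may lie on opposite strands, cannot be assigned from the deposited coordinates, and the files give no strand for the loci. The nearest named locus matched a GENCODE M21 gene by name for 283 loci, and 233 of those neighbours were protein coding. By the strand of that neighbour, 155 loci lay before its start and 127 past its end, 1 had neighbours on both strands and 121 could not be placed. A RefSeq gene overlapped 143 loci, of which 117 overlapped a long noncoding RNA, and 257 overlapped neither a RefSeq nor a GENCODE M21 gene.

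The promoter sequences shown here give a base-level landmark inside or beside 5 loci called higher in KO, whose values follow. Of the 404 loci, 35 held a complete RefSeq promoter window, which runs from 250 bases before to 50 bases after a gene start, and 42 windows lay inside loci. The sequences are those of RefSeq on GRCm38.p6 (the assembly of mm10), 5′ to 3′ on the strand of the gene named. Capitals mark every CG dinucleotide and every match to the polyadenylation signals AATAAA and ATTAAA or the splice donor motif GGTAAG, on either strand. The first window starts the noncoding gene model Gm19497 inside the locus past the end of Btg2. The next pair starts Gm38882 and Gm38883 inside the locus past the end of Zfp239 and Zfp637. The fourth starts 4933432I09Rik inside the locus before the named range of Ccdc188. The last pair are the promoters of Maoa and Mtx2, which 2 of the loci precede.
Gm19497, chr1:134060898-134061197, minus strand: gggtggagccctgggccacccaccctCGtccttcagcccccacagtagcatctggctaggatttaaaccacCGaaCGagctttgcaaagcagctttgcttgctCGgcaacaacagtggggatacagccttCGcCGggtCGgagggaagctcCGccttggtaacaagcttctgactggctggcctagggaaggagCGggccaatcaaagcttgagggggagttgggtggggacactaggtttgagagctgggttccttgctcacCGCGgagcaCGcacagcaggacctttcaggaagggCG
Gm38882, chr6:117879383-117879682, plus strand: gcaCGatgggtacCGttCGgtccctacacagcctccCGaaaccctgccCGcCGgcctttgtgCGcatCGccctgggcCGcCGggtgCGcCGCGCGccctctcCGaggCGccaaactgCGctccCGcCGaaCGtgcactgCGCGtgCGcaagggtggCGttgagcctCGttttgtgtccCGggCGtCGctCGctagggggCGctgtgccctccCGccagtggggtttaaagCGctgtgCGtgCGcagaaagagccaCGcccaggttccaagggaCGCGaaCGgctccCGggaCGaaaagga
Gm38883, chr6:117880967-117881266, minus strand: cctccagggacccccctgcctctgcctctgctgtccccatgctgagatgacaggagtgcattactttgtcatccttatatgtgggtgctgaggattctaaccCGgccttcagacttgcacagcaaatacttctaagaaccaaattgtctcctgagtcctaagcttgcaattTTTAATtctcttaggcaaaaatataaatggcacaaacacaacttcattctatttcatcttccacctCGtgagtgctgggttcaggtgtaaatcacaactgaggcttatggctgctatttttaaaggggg
4933432I09Rik, chr16:18213814-18214113, minus strand: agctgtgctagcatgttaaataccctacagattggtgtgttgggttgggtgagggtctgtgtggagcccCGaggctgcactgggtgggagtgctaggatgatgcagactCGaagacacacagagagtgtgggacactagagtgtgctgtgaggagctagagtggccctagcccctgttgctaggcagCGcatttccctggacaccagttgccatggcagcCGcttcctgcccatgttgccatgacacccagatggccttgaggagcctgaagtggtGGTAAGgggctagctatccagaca
Maoa, chrX:16619448-16619747, plus strand: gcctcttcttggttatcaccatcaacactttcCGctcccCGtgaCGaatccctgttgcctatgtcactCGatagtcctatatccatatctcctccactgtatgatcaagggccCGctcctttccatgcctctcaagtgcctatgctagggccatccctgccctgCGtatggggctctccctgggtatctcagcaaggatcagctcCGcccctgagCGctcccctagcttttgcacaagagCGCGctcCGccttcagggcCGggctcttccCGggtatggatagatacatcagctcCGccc
Mtx2, chr2:74825562-74825861, plus strand: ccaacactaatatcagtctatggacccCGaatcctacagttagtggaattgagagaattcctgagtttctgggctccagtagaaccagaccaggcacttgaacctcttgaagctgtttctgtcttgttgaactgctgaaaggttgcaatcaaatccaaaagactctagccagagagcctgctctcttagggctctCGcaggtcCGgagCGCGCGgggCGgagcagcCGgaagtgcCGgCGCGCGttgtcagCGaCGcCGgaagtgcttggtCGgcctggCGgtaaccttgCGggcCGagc

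The Gm38882 window holds 40 CG dinucleotides and the Gm38883 window, which starts on the other strand of the same locus, holds 2. The windows of Mtx2, Maoa and Gm19497 hold 19, 14 and 13. Of the 42 windows inside loci, 26.2% held AATAAA, 11.9% ATTAAA and 19.0% GGTAAG, against 19.6%, 13.9% and 9.67% of all 32851 RefSeq windows of that length. The median number of CG dinucleotides was 4.5 inside loci and 7 over all windows. For the 40 neighbours whose start is preceded by a locus called higher in KO, the promoter window had a median of 20 CG dinucleotides. Over 20150 windows of protein-coding genes the median was 14. That set is unlike, with more than 1 window for some genes, while each neighbour gave 1 window and could be of any gene type. For the 52 neighbours preceded by a locus that was not called, the median was 16.5. Past an end the order was the other way, with a median of 13 for 35 neighbours of loci called higher and 20 for 47 neighbours of loci not called. These are counts of letters and were not tested.

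More of the loci had RNA in KO heads. At 0.1 FPKM or more, 303 to 342 of the 404 loci were seen in a KO library (mean 328 ± 15.7, SD, n = 6), against 178 to 202 in a HET library (187 ± 12.9, SD, n = 3) and 167 to 184 in a WT library (179 ± 7.05, SD, n = 5). The median FPKM over the 404 loci ran from 0.579 to 0.837 in KO libraries, from 0.0609 to 0.0987 in HET libraries and from 0.0506 to 0.0708 in WT libraries. The groups KO and WT did not overlap in either measure, nor did KO and HET. The 404 loci were chosen on these values, so this split is in part set by the choice. The number of loci seen was also higher in every KO library over all loci of the files. Of these, 22666 to 25272 were at 0.1 FPKM or more in KO, 19927 to 20642 in HET and 20109 to 20543 in WT libraries. The median is given for the 404 loci only. With no filter on level, 845 to 1136 of all 3977 unnamed loci at this distance were at 0.1 FPKM or more in KO libraries, against 504 to 552 in HET and 491 to 541 in WT libraries.

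**Figure D1:**
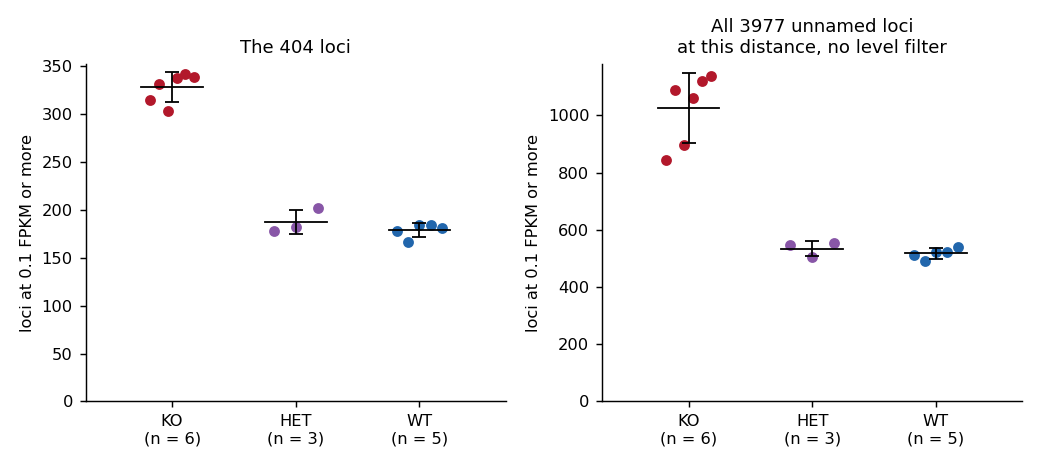
Number of loci at 0.1 FPKM or more in each library (points), with the mean and SD of the group (line and bar), for the 404 loci on the left and for all 3977 unnamed loci at the same distance on the right. The KO libraries sit between 303 and 342 on the left, above every HET and WT library. The loci on the left were chosen on these values.

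By limma-trend on log2(FPKM + 0.1), with Benjamini-Hochberg adjustment across the 18217 tested loci, 203 of the 404 loci (50.2%) were called higher in KO than WT and 3 were called lower. Over all tested loci, 19.0% were called higher and 5.61% lower. Under quantile normalization of the same values, 121 of the loci were called higher and 51 lower. The median log2 difference was 1.57 over the 404 loci and -0.0019 over all tested loci. Every KO library lay above every WT library at 170 loci (42.1%), against 15.3% of all tested loci, and below at 0 loci, against 1.99%. At 165 loci every KO library lay above every WT and every HET library, against 14.6% of all tested loci. These shares describe the set and do not support a difference on their own, because 182 of the 404 loci reached 0.5 FPKM in no WT and no HET library and so entered through KO libraries alone. Of those 182, 173 were among the calls.

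Loci chosen on WT libraries alone give a choice of level in which KO FPKM values had no part, although it favours loci that happen to be high in WT. Whether KO reads helped to set the ranges of the unnamed loci is not known and was not tested. Of the 404 loci, 77 reached 0.5 FPKM in at least 3 of 5 WT libraries. In a fit over the 14780 loci of any kind that met the same condition, 9 of the 77 (11.7%) were higher in KO and 1 was lower, against 6.79% and 4.49% of the 14780. The lower one is a locus past Fmr1nb that was above 0 in 3 WT libraries and in no other, so it entered through WT alone. The median log2 difference was 0.16 over the 77 loci and -0.034 over the 14780. Of the 51 that spanned at least 300 bases, 8 (15.7%) were higher and 0 lower, where 6.77% and 4.50% of the 14693 loci of that length were. Of the 26 under 300 bases, 1 was higher and 1 lower, against 9.20% and 2.30% of loci that short. An unadjusted p under 0.05 was reached by 23 of the 77 (29.9%) and by 3767 of the 14780 (25.5%). Of the 203 calls, 192 were at loci that did not meet the WT condition.

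The calls are given by length as a description of the set, and the difference between lengths was not tested. Loci of at least 300 bases numbered 298, and 188 of them (63.1%) were higher in KO and 0 lower, against 19.0% and 5.70% of all tested loci of that length, with a median log2 difference of 1.77. Loci under 300 bases numbered 106, of which 15 (14.2%) were higher and 3 lower, against 21.0% and 1.08% of all 371 tested loci under 300 bases. Those under 300 bases were at 0 in 39 to 63 of the 106 in KO libraries and in 64 to 71 in WT libraries, and FPKM of so short a locus rests on few fragments or on a few highly abundant ones. By length the calls were 60 of 84 loci between 300 and 1000 bases, 80 of 120 between 1000 and 5000 bases and 48 of 94 at 5000 bases or more. By distance they were 53 of 92 loci at 1 to 2 kb, 75 of 156 at 2 to 5 kb and 75 of 156 at 5 to 10 kb. By side of the neighbour they were 80 of 155 before a start and 59 of 127 past an end. When a range identical to that of a GENCODE M21 gene was also used to place neighbours, they were 104 of 206 and 85 of 174.

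**Figure D2:**
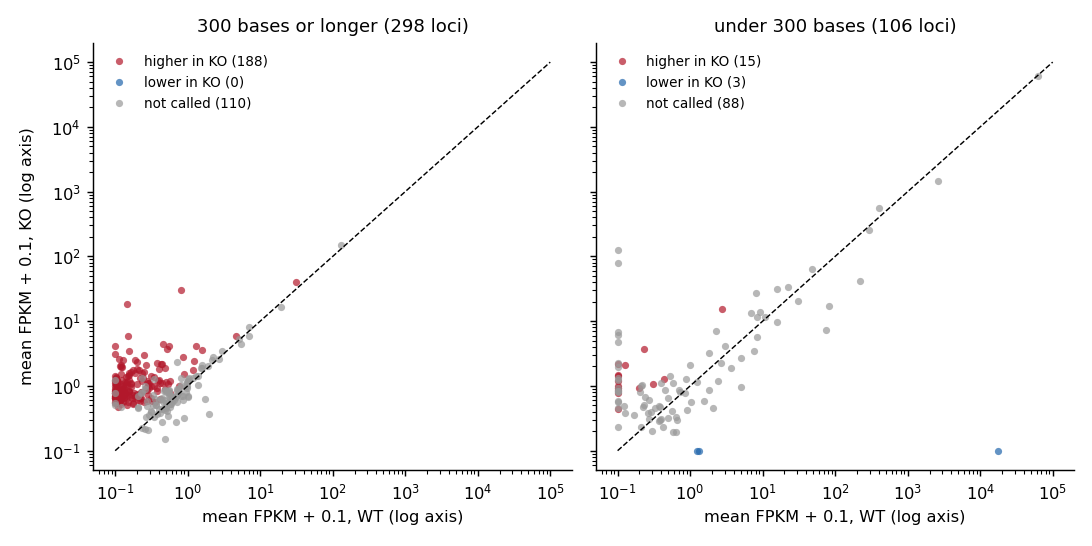
Mean FPKM + 0.1 of each locus in KO (vertical log axis) against WT (horizontal log axis), for loci of 300 bases or longer on the left and under 300 bases on the right, coloured by call; the dashed line marks equal levels. Most of the 188 longer loci called higher sit at the left edge, below 1 FPKM in WT.

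**Figure D3:**
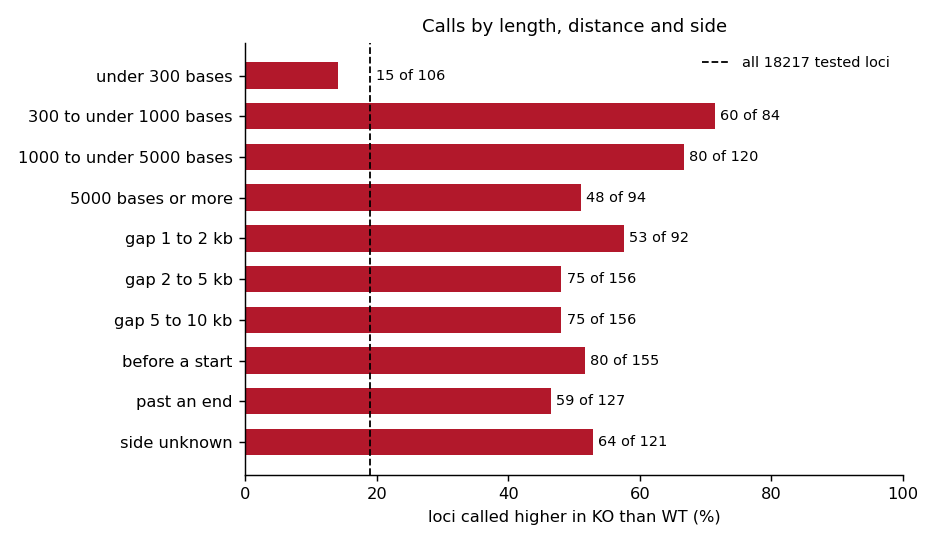
Percent of the loci called higher in KO than WT, by length, by gap to the nearest named locus and by side of that locus, with counts beside the bars. The dashed line is the share over all 18217 tested loci, 19.0%, and only the bar for loci under 300 bases ends left of it.

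Loci at other distances, chosen at the same level, gave 766 of 935 (81.9%) within 1 kb of a named locus and 213 of 451 (47.2%) beyond 10 kb called higher in KO. Among loci of at least 300 bases the shares were 63.1% at 1 to 10 kb, 88.1% within 1 kb and 59.7% beyond 10 kb. The differences between these shares were not tested.

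At the 203 loci called higher, RNA was scarce in HET and WT heads. These loci were picked by their rise over WT, and only 11 reached 0.5 FPKM in at least 3 WT libraries. Their low WT levels and large differences are therefore in part set by the choice. The median of their mean FPKM was 0.875 in KO, 0.0460 in HET and 0.0447 in WT, and the log2 differences of KO from WT had a median of 2.55 with quartiles of 1.93 and 3.01. The KO mean was at least 1 FPKM at 83 of them and at least 5 FPKM at 6. In every WT library 30 of them were listed at 0, and 22 were listed at 0 in every WT and HET library. An overlap with a RefSeq long noncoding RNA was held by 64 of the 203, and 132 overlapped no RefSeq or GENCODE M21 gene. Both shares are near those of all 404 loci, given above.

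Of the 10 loci with the largest log2 differences and at least 1 FPKM in KO, the one with the highest level lay past the end of Btg2, which encodes an antiproliferative protein of neural progenitors that are about to make neurons. This locus (XLOC_003177, chr1:134059946-134070072) spanned 10127 bases, began 5097 bases from Btg2 and overlapped the noncoding gene model Gm19497, whose promoter is printed above. The locus lay mostly before the gene start in that window, because Gm19497 is on the minus strand. Its FPKM was 28.2 at the lowest, 29.3 at the median and 31.8 at the highest in the KO libraries, against 1.31, 0.849 and 0.922 in HET and 0.708, 0.656, 0.679, 0.842 and 0.641 in WT libraries. All 6 KO libraries lay far above every other library, and they exceeded WT by 5.21 on the log2 scale (SE 0.10, limma-trend adjusted p = 1.9e-14 in the fit over loci chosen on WT). Btg2 itself had 26.2 FPKM in KO and 24.3 in WT on average, a log2 difference of 0.11 with a limma-trend adjusted p of 0.25. A second locus with the identical range averaged 0.565 FPKM in KO and was listed at 0 in every WT library.

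Past the end of Zfp239 and Zfp637, a pair of zinc finger genes that share 1 named range, lay a locus of 5869 bases (XLOC_048870, chr6:117878702-117884570) that overlapped the Gm38882 and Gm38883 gene models. It had 2.60, 4.18 and 4.73 FPKM as the lowest, median and highest KO value, against 0.594, 0.619 and 0.514 in HET and 0.473, 0.492, 0.387, 0.490 and 0.404 in WT libraries. The KO libraries did not overlap the others, and the log2 difference of KO from WT was 2.87 (SE 0.14). WT libraries stayed under 0.5 FPKM at this locus, so its difference is given without a p.

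Several loci before the starts of protein-coding genes were above 1 FPKM in most KO libraries and at or near 0 in most HET and WT libraries. The locus before Maoa, the gene of monoamine oxidase A (XLOC_065978, chrX:16617866-16618221, gap 1476 bases), had 0.647, 2.83 and 3.25 FPKM as the lowest, median and highest KO value, 0 in all 3 HET libraries and 0 in 4 WT libraries, and 0.0575 in WT4. Before Eya1, a transcriptional coactivator needed for ear and craniofacial development, the locus (XLOC_000090, chr1:14506948-14508158, gap 2172 bases) had 1.44, 2.50 and 3.18 FPKM in KO, against 0.0243, 0.0783 and 0.0305 in HET and 0, 0, 0.0505, 0.0443 and 0.0464 in WT. Before Mtx2, which encodes a protein of the mitochondrial outer membrane, the locus (XLOC_035424, chr2:74824450-74824654, 205 bases, gap 1148 bases) had 1.79, 2.96 and 6.48 FPKM in KO, against 0, 0 and 1.83 in HET and 0.335, 0, 0, 0.320 and 0 in WT. At Mtx2 the highest HET library lay just above the lowest KO library. No overlap between KO and WT was a condition of the choice of these 3 loci, and none reached 0.5 FPKM in a WT library. Their neighbours were not called, with log2 differences between KO and WT of -0.14 for Maoa, 0.071 for Eya1 and 0.025 for Mtx2.

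Other loci with large differences had no neighbour annotated as protein coding. Before the start of the small nuclear RNA gene Gm26001, a locus of 3504 bases (XLOC_042641, chr4:136132852-136136355) had 4.60, 5.76 and 6.70 FPKM as the lowest, median and highest KO value, against 0.119, 0.0642 and 0.119 in HET and 0.0530, 0.0434, 0.0840, 0.0478 and 0.0293 in WT. Past the end of another, Gm23590, a locus of 1477 bases (XLOC_022237, chr15:102376184-102377660) had 2.04, 3.02 and 3.89 FPKM in KO, against 0.0410, 0.0423 and 0.0093 in HET and 0 in all 5 WT libraries. A locus of 641 bases on chromosome 4 that overlaps the RefSeq gene model Gm31125 (XLOC_042148, chr4:106839449-106840089) had 2.18, 3.69 and 6.53 FPKM in KO and was listed at 0 in every HET and WT library. In each of these no WT library reached 0.5 FPKM. The lowest KO library also stood above every HET and WT library, which for WT was a condition of the choice. The same held at chr3:87959914-87963246 over the gene model Gm32518, where KO ran from 1.33 to 2.88 FPKM, HET from 0.0347 to 0.0690 and WT from 0 to 0.0454, at chr7:87110818-87111335, where KO ran from 1.97 to 5.63, HET from 0.0636 to 0.415 and WT from 0 to 0.138, and at the 238-base locus chr10:118103044-118103281, where KO ran from 0.990 to 3.51 and all HET and WT libraries were at 0.

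**Figure D4:**
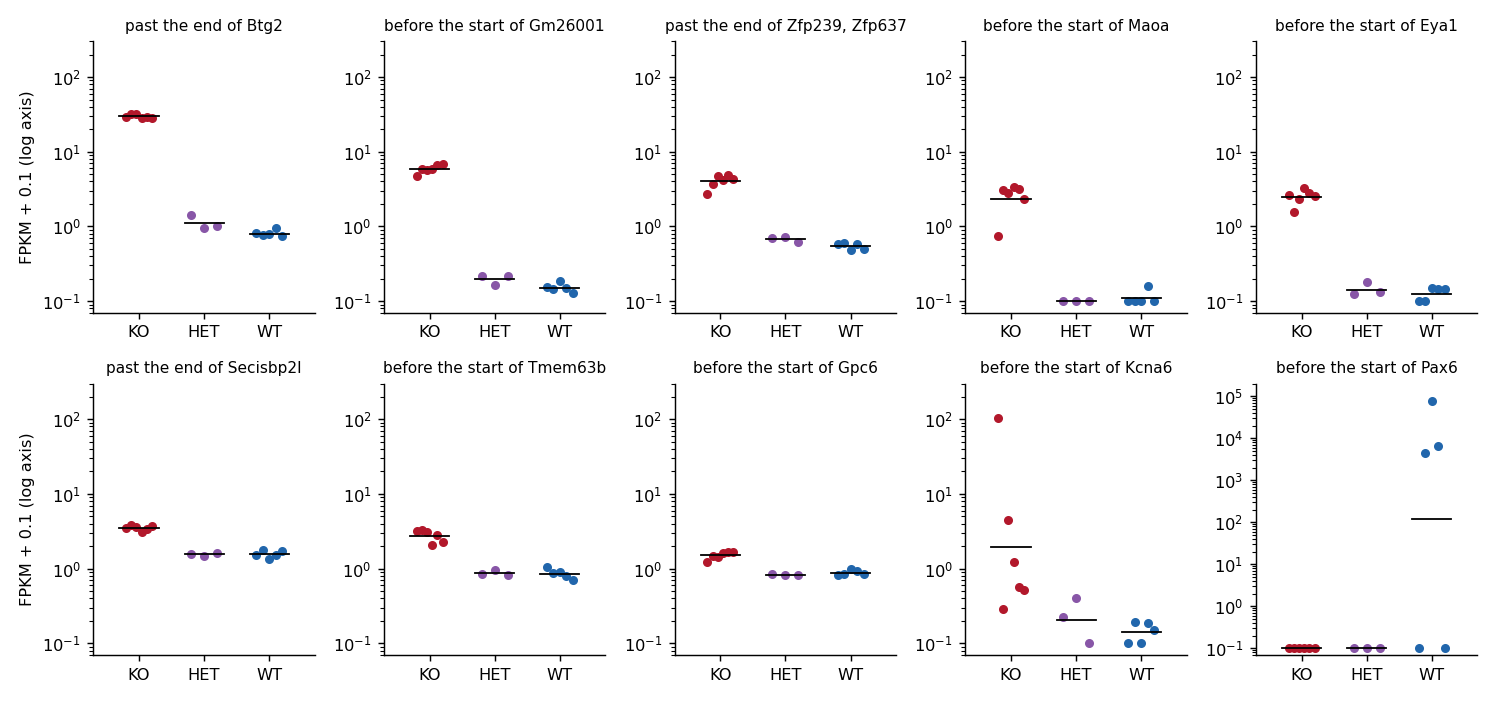
FPKM + 0.1 (log axis) of 10 loci in each KO, HET and WT library (points), titled by side and name of the nearest named locus; the line is the mean on the log scale, and the Pax6 panel has a longer axis. KO libraries stand apart from WT in the panels from Btg2 to Gpc6, which for Btg2, Gm26001, Maoa and Eya1 was a condition of the choice. KO1 stands alone at 104 FPKM in the Kcna6 panel, and 3 of 5 WT libraries stand alone in the Pax6 panel.

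Among the loci with RNA in WT heads, most differences were smaller. The SE and adjusted p of each locus here and in the next paragraph are from the fit over loci chosen on WT, unless another setting is named. The locus past the end of Secisbp2l, which encodes a protein related to the selenocysteine insertion factor SECISBP2 (XLOC_035587, chr2:125731814-125733452), had 3.02, 3.44 and 3.78 FPKM as the lowest, median and highest KO value, against 1.48, 1.37 and 1.51 in HET and 1.43, 1.65, 1.24, 1.43 and 1.62 in WT. KO exceeded WT by 1.17 on the log2 scale (SE 0.090, limma-trend adjusted p = 1.6e-07), while Secisbp2l itself had 14.8 FPKM in KO and 15.2 in WT. Before Tmem63b, an ion channel gene, a locus of 21186 bases (XLOC_027099, chr17:45703212-45724397) had 1.97, 2.84 and 3.19 FPKM in KO, against 0.742, 0.868 and 0.732 in HET and 0.947, 0.785, 0.791, 0.689 and 0.613 in WT, a log2 difference of 1.67 (SE 0.14, limma-trend adjusted p = 4.6e-07). At both loci every KO library lay above every HET and WT library, and HET and WT overlapped. The range before Tmem63b overlapped the RefSeq long noncoding RNA Gm35456.

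Before Spata7, a gene of the photoreceptor cilium, a 302-base locus (XLOC_014784, chr12:98620748-98621049) had 2.91, 4.10 and 5.12 FPKM in KO, 0.880, 0.780 and 1.46 in HET and 1.55, 1.42, 0.976, 1.11 and 0.917 in WT, with a log2 difference of 1.66 (SE 0.19, limma-trend adjusted p = 1.8e-05). Before Gpc6, a glypican of the cell surface, the locus (XLOC_021240, chr14:116921008-116923008) had 1.11, 1.44 and 1.57 FPKM in KO, 0.739, 0.720 and 0.723 in HET and 0.715, 0.736, 0.900, 0.827 and 0.748 in WT. Its log2 difference was 0.77 (SE 0.11, limma-trend adjusted p = 1.8e-04), it was not called under quantile normalization (adjusted p = 0.23), and Gpc6 was itself called higher in KO by 0.21 on the log2 scale. The locus before the named range of Ccdc188 (XLOC_024586, chr16:18210778-18216807) overlapped GENCODE M21 exons of AC118542.1 and of 4933432I09Rik, whose promoter is printed above. The locus also overlapped the RefSeq protein-coding gene Ccdc188 itself, so part of it is annotated RNA. It had 1.66, 2.22 and 3.13 FPKM in KO, 1.04, 1.08 and 0.990 in HET and 1.09, 1.27, 1.22, 0.897 and 1.09 in WT, a log2 difference of 0.98 (SE 0.14, limma-trend adjusted p = 1.8e-04). At none of these 3 loci did a KO library fall to the level of a WT or HET library.

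Also among the loci called higher with the largest KO levels on each side of a neighbour were those near Las1l, Dcc and Kcna6. Before Las1l, which acts in ribosome assembly, a locus of 10964 bases (XLOC_065364, chrX:95960558-95971521) had 5.18, 5.85 and 6.29 FPKM as the lowest, median and highest KO value, against 4.42, 3.63 and 4.14 in HET and 4.08, 4.41, 5.18, 4.50 and 4.45 in WT. The lowest KO and the highest WT library met at 5.18. The log2 difference was 0.35 (SE 0.080, limma-trend adjusted p = 0.0097 in the fit over loci chosen on WT). Past the end of the named Dcc range, where Dcc encodes a netrin receptor, the locus of 743 bases (XLOC_029316, chr18:71253626-71254368) overlapped a GENCODE M21 exon of Dcc. It had 31.5, 39.5 and 50.5 FPKM in KO, 38.3, 31.0 and 32.0 in HET and 27.6, 31.3, 32.4, 31.6 and 31.7 in WT, with KO and WT overlapping. In the fit over loci chosen on WT its log2 difference of 0.35 had a limma-trend adjusted p of 0.064. Before Kcna6, a voltage-gated potassium channel gene, a locus of 14167 bases (XLOC_049018, chr6:126742889-126757055) averaged 18.5 FPKM in KO because KO1 had 104, while the other KO libraries had 0.188, 4.44, 1.13, 0.474 and 0.422. HET libraries had 0.123, 0.305 and 0, and WT libraries had at most 0.0948. The locus before Kcna6 overlapped the RefSeq long noncoding RNA Gm33581. It passed the level in 3 KO libraries and in no other, so no p is given.

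The 3 loci called lower in KO were all under 300 bases, at 0 in every KO and HET library, and above 0 in only 3 of 5 WT libraries. The locus of 100 bases before Pax6, a transcription factor of eye and forebrain progenitors (XLOC_035509, chr2:105486615-105486714), had 0, 4467, 76434, 6482 and 0 FPKM in WT. A locus of 168 bases past the end of Fmr1nb (XLOC_066060, chrX:68808986-68809153) had 2.68, 0.750, 2.64, 0 and 0 FPKM in WT. A locus of 188 bases before Mir124-2hg, a host gene of the neuronal microRNA miR-124 (XLOC_039115, chr3:17178293-17178480), had 0, 0, 4.14, 0.962 and 0.522 FPKM in WT. All 3 loci entered through WT libraries alone, and their calls were lost under 20 of 24 alternatives before Pax6, 19 of 23 before Mir124-2hg and 7 of 23 past Fmr1nb. The locus before Pax6 overlapped the RefSeq long noncoding RNA 4930527A07Rik. Pax6 had 29.2 FPKM in KO and 29.9 in WT.

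Of the 8 loci with the highest mean FPKM, 7 spanned under 300 bases, and none was called higher in KO. The 126-base locus past the end of Rimbp3 (XLOC_025205, chr16:17222326-17222451) averaged 61688 ± 20061 FPKM in KO (SD, n = 6) and 62879 ± 8436 in WT (SD, n = 5). Its log2 difference was -0.086, with a limma-trend adjusted p of 0.87 in the fit over loci chosen on WT. The 173-base locus past the end of the splicing factor gene Tra2a (chr6:49236450-49236622) averaged 252 ± 78.5 FPKM in KO and 289 ± 85.5 in WT, and the 839-base locus chr6:3200767-3201605 averaged 151 ± 36.9 in KO and 131 ± 21.6 in WT. The groups overlapped at all 3. Of the 8 loci with the highest mean level, the other 5, between 100 and 107 bases long, included libraries at 0 or spread over more than 10 times between libraries of 1 genotype, and 1 of them is the locus before Pax6.

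None of the loci was called in HET heads. The same fit did not call Zcchc8 in HET either (log2 difference -0.62, SE 0.18, limma-trend adjusted p = 1), although all 3 HET libraries lay below every WT library. By limma-trend, 0 of the 404 loci were called higher in HET than WT, against 0.00549% of all tested loci, and 0 were called lower, against 0.00%. At an unadjusted p under 0.05 there were 18 of the 404 loci and 354 of all tested loci. Every HET library lay above every WT library at 3 loci and below at 3, against 1.05% and 1.43% of all tested loci. At the 203 loci called higher in KO, the HET mean was above the WT mean at 93 and lay between the lowest and the highest WT library at 165. The 3 loci with the smallest p in HET were the one past Btg2, with a log2 difference of 0.47, the locus chr15:77356503-77360235, with 0.53, and a locus past the end of Rpn1, a gene of the oligosaccharyltransferase, at chr6:88106365-88110803, with -0.87. All 3 had a limma-trend adjusted p of 1. At chr15:77356503-77360235 KO libraries had 1.59 to 1.94 FPKM, HET libraries 0.678, 0.431 and 0.687 and WT libraries 0.432, 0.284, 0.377, 0.482 and 0.332. At the locus past Rpn1 KO libraries had 1.72 to 2.66 FPKM. There HET libraries had 0.142, 0.118 and 0.0912 and WT libraries 0.592, 0.319, 0.133, 0.384 and 0.190. The HET difference from WT was thus opposite in sign to that of KO.

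Against HET, 195 of the 404 loci were higher in KO by limma-trend and 0 lower, where 17.9% and 4.36% of all tested loci were. Every KO library lay above every HET library at 182 loci, against 17.7% of all tested loci, and below at 0, against 5.19%. This comparison uses the same KO libraries as the one with WT.

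The genes beside the loci were called at shares near those of named loci in general. The 203 loci called higher had 186 distinct neighbours, of which 110 were expressed enough to be tested and 76 were not. Of those 110, 17 (15.5%) were called higher and 6 (5.45%) lower in KO than WT, and their log2 differences had a median of -0.011. Among the 91 that were protein coding, 8 were higher and 6 lower. The share called higher was thus smaller among these than among the rest of the 110. Of all 16213 tested named loci, 2147 (13.2%) were higher and 1013 (6.25%) lower. The neighbours of loci that were not called numbered 116 tested, with 4 higher and 4 lower, both smaller shares than among all tested named loci. Differences between these shares were not tested.

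**Figure D5:**
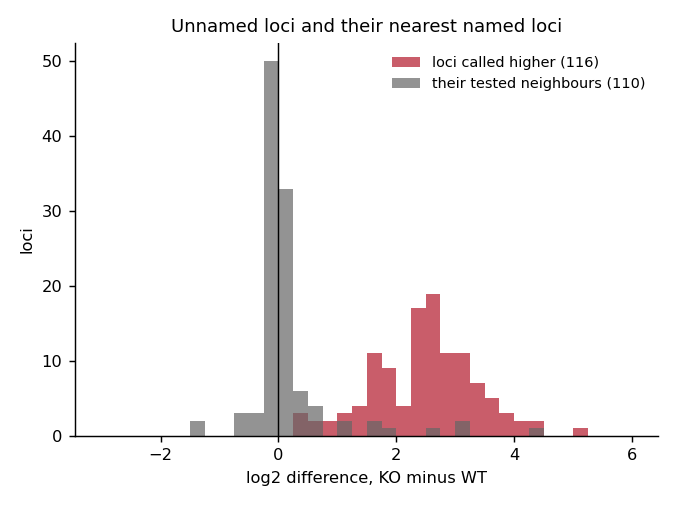
Histogram of the log2 difference between KO and WT for the 116 loci called higher whose nearest named locus was tested (red) and for the 110 distinct neighbours (grey), in steps of 0.25. The neighbours centre on 0, with a median of -0.011, and the loci were chosen by their call.

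The loci at the edges of the distance rule had the following values. Just inside the lower limit lay the locus before Miat, a long noncoding RNA of the nervous system (gap 1014 bases). This locus overlapped the RefSeq long noncoding RNA Gm52821 and averaged 0.542 FPKM in KO and 0.0702 in WT. The 136-base locus before Mir22hg (gap 1021 bases) was not called. Its values were 0, 3.68, 0, 16.7, 7.60 and 7.81 FPKM in KO, 0, 0 and 19.7 in HET and 0 in all 5 WT libraries. Just outside the lower limit, the loci near Crtac1 (gap 996 bases) and RP24-176P19.1 (gap 998 bases) averaged 1.95 and 0.0910 FPKM in KO and were listed at 0 in WT. Just inside the upper limit, the loci before Rgs8 (gap 9891 bases) and Pja1 (gap 9979 bases) averaged 0.787 and 0.959 FPKM in KO and 0.0223 and 0.0199 in WT. Just outside it, those near Foxk1 (gap 10006 bases) and Mab21l1 (gap 10076 bases) averaged 0.515 and 1.54 FPKM in KO and 0.0077 and 0.192 in WT. On the level rule, the third-highest library was at 0.501 FPKM for the lowest locus kept and at 0.499 for the highest one left out.

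Counts of calls between KO and WT in lists of the decay machinery stand beside 19.0% of all tested loci called higher and 5.61% lower. Of the 3 tested NEXT subunits, Zcchc8 was lower, and Rbm7 and Skiv2l2, the helicase MTR4, had log2 differences of -0.0098 and 0.026. None of 13 exosome genes was called. Among 9 other exosome adaptors and cap-binding factors 1 was higher, Srrt, with a log2 difference of 0.31, and among 14 Integrator genes 1 was lower, Ints10, with -0.15. Of 21 genes of cleavage, polyadenylation and termination, 2 were higher, Pcf11 with 0.55 and Cstf3 with 0.22. Both act in ending transcripts at polyadenylation signals.

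Some markers of tissues in the head were called between KO and WT, where 19.0% of all tested loci were called higher and 5.61% lower. Neuron markers (0 of 4 tested called) and progenitor markers (1 of 5 higher) were expressed in every group. None was called of 5 endothelium, 5 myeloid and 3 skeletal muscle markers, and the last had a median log2 difference of -1.05 and summed to 14.96 to 93.0 FPKM in KO, 81.1 to 107.6 in HET and 69.55 to 129 in WT. In KO, 3 of 5 lens, 3 of 5 surface epithelium, 3 of 5 choroid plexus, 2 of 5 head mesenchyme and 1 of 5 cartilage markers were lower than in WT, and 1 of 3 erythroid and 1 of 4 pituitary markers were higher. The summed FPKM of the surface epithelium markers was 63.4 to 80.5 in KO, 97.7 to 99.5 in HET and 86.6 to 123 in WT, and that of the choroid plexus markers was 100.5 to 138 in KO, 147 to 165 in HET and 133 to 176 in WT. The lens markers summed to 25.5 to 118 in KO, 92.5 to 145 in HET and 83.0 to 111 in WT. The part of these tissues in the differences of the loci was not tested.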

How the data were processed

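Polyadenylated RNA of 14 whole-head libraries was analysed, grouped by the genotype in the labels. Cuffdiff, Partek, TopHat2 2.1.0, FastQC 0.10.0, bcl2fastq and the build mm10 were used per the submitters' processing notes, which give no roles. The authors deposited 1 table of FPKM values per library and a matrix of quantile-normalized log2 FPKM values, blank where FPKM is 0. A value of 0 can be a failed estimate. No counts are given, so total depth is unknown. Relative depth came from FPKM steps under 0.3 FPKM.

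The members and lists were chosen with earlier results of these data known. Loci at 0.5 FPKM or more in at least 3 libraries were fitted on log2(FPKM + 0.1), which understates the change of low loci, with limma-trend (limma 3.58.1, R 4.3.3, robust) in 1 fit of the 3 genotypes, with a threshold of 0.05 on the adjusted p. Loci named in the text are the 8 highest in level, the 10 largest rises at 1 FPKM or more in KO with no overlap, the 6 smallest p among loci chosen on WT, those called lower, the 3 smallest p in HET, those at the gap limits and the 3 highest called on each side of a neighbour. A few of these are given only in counts. Sides came from GENCODE M21 and sequences from RefSeq (GRCm38.p6). Letters were counted in RefSeq promoter windows, since the loci's own sequence was not used here. The fit was tested on simulated data. Python 3.11.15, pandas 2.3.3, numpy 2.4.6, scipy 1.17.1 and matplotlib 3.10.9 were used. Alternatives covered pseudocounts, filters, scalings, library weights, the replicate block, single libraries left out and, added after seeing the data, loci of at least 300 bases.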

Additional observations from a re-analysis of the deposited data

Results flagged for a closer look

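Dixon's test has a chance rate of about 1 in 20 for normal values only. That rate does not apply here, because some groups were at 0 in all libraries but 1 and some loci were chosen for high means. In 7 of 80 groups of named loci tested, 1 library stood apart from the rest of its group by this test. They were WT3 at the locus before Pax6 (76434 FPKM), KO3 at chr14:43118775-43118881 (251 FPKM, with the other KO libraries at 0), KO3 at chr7:87110818-87111335 (5.63 FPKM), WT4 at the locus before Maoa (0.0575 FPKM, with the other WT libraries at 0), WT3 at the locus before Mir124-2hg (4.14 FPKM), KO1 at the locus before Kcna6 (104 FPKM) and WT1, the lowest, at the locus past Dcc (27.6 FPKM).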

How the results depend on the processing

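Loci higher in KO than WT (203) numbered 121 under quantile normalization, 87 of 182 under a stricter filter of 1 FPKM and 9 of 77 under the WT filter. Against HET (195) these counts were 110, 84 and 9. Other settings gave counts within 1.5 times. Among them the authors' matrix, which is blank at 0, gave 168 of 350 loci against WT and 130 of 324 against HET. Leaving out single libraries gave 193 to 206 against WT and 180 to 201 against HET. Loci lower in KO than WT (3) numbered 8 with the authors' matrix, 51 under quantile normalization, 1 with a pseudocount of 0.5, the replicate block or the WT filter, and 0 with a pseudocount of 1, no filter, the stricter filter, only the compared groups or loci of at least 300 bases; single libraries left out gave 1 to 3, with 1 without HET3, HET5, KO2, WT2, WT3 or WT4. Lower than HET (0) numbered 5 with the matrix, 34 under quantile normalization and 1 with a common median, library weights or the block, with 0 to 2 on leaving out libraries. No locus was called in HET against WT under any of these. Under the WT filter, 17 of 74 were higher and 2 lower with the matrix, and the 1 lower became 0 with a common median, only the compared groups, either pseudocount or the block; single libraries left out gave 9 to 12 higher and 0 to 2 lower. The median of all tested loci moved by 0.21 with the authors' matrix. Loci at 0.5 FPKM or more averaged 267, 96.7 and 99.8 in KO, HET and WT libraries, and at 0.05 FPKM or more 217.7 in HET and 206.0 in WT. The difference of the locus before Miat turned to -0.0016 under quantile normalization. The calls before Pax6 and Mir124-2hg, past Fmr1nb and Dcc and before Kcna6 were each lost in several settings, and the cause was not tested. Without single libraries the Zcchc8 difference ran from -1.48 to -1.25. Replicate numbers did not pair the libraries (correlations of -0.11 to 0.10), and the block gave 194 higher against WT. Short loci and low FPKM limit what can be told.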
